A study of Mus musculus with 12 samples.

Results

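The 36 genes described here encode proteins of the endoplasmic reticulum (ER) that fold, check and export secreted proteins, together with sensors and transcription factors of the unfolded protein response. They were chosen by gene symbol, and all 36 were found among the 56748 rows of the count table and among the 16465 genes that passed the filter on low counts. By role they were 10 chaperones and co-chaperones, 4 genes of disulfide isomerases and related proteins, 5 sensors and factors, 6 genes of ER-associated degradation (ERAD), 5 genes of the translocon and 6 genes of export and retrieval. Expression was measured by bulk RNA-seq in C3H10T1/2 cells (10T1/2), a mouse mesenchymal progenitor line with a wild-type genotype, which the sample records spell CH310T1/2.

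All cells were serum starved in 0.5% serum and held in suspension for 1 h before they were seeded for 18 h on 12 kPa hydrogels that carried a layer of type I collagen (applied at 0.05 mg/ml). In the col1 group the gel carried collagen alone, and in the col1-ACLP group the collagen had been polymerized with 30 nM recombinant aortic carboxypeptidase-like protein (ACLP), a secreted matrix protein. The col1-ACLP+SB group had the same ACLP gel and received 5 µM SB431542, an inhibitor of the TGFβ receptor kinase ALK5, at seeding. Each group had 4 libraries, and there was no group with the inhibitor on collagen alone, so an effect of SB431542 that does not need ACLP cannot be told apart from one that does. The 3 comparisons also share groups and are given side by side, not as independent tests.

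Proteins bound for secretion enter the ER through the Sec61 channel, fold with the help of chaperones and disulfide isomerases, and leave in vesicles coated with COPII. When unfolded protein accumulates, the sensors ATF6, IRE1 and PERK raise the transcription of chaperone, isomerase and ERAD genes, which is the unfolded protein response. Fibroblasts that lay down collagen rely on this machinery, because procollagen is folded and disulfide-bonded in the ER and is too large for standard vesicles.

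Total counts ranged from 29246154 to 52201922 per library. In a principal component analysis col1 replicate 2 stood apart at -86.7 on the first component, with the other 11 libraries between -11.1 and 20.6. Mitochondrial mRNA took 2.27 to 2.82% of counts on col1, 1.90 to 2.1% on col1-ACLP and, with SB431542, 2.01 to 2.75%. The col1-ACLP range lay below that of col1, and the range with SB431542 overlapped both. Of the mesenchymal markers, 8 of 8 exceeded 1 CPM (library-size scaled counts, with TMM factors between libraries) in each group, with a summed level of 25131 to 26051 CPM on col1, 34979 to 43212 CPM on col1-ACLP and, with the inhibitor, 31890 to 37422 CPM. Of the 8, *Col1a1* and *Col1a2* were higher on col1-ACLP than on col1 (log2 fold changes 0.82 and 0.65), *Pdgfra* and *Pdgfrb* were lower (-0.76 and -0.15), and *Thy1*, *Vim*, *Eng* and *Ly6a* were not called. With SB431542, *Col1a1* and *Col1a2* were again higher than on col1 and *Pdgfra* and *Pdgfrb* lower, and *Ly6a* was lower than on col1 (-0.23, adjusted p = 0.00725). Between the ACLP groups *Col1a2* (-0.21, adjusted p = 0.00842) and *Ly6a* (-0.24, adjusted p = 0.0243) were lower on col1-ACLP+SB. Summed epithelial, endothelial and haematopoietic markers were each between 2.68 and 10.9 CPM in all libraries. The haematopoietic sum was 9.37 to 10.9 CPM on col1 and 5.35 to 9.12 CPM on col1-ACLP (*Cd68* -0.49, adjusted p = 0.0284), and the endothelial gene *Tek* was lower on col1-ACLP+SB than on col1-ACLP (-0.86, adjusted p = 0.0116). A list for antibody-secreting cells, which have a large ER, summed to 104.6 to 111 CPM on col1, 85.8 to 92.4 CPM on col1-ACLP and, with the inhibitor, 81.3 to 99.5 CPM, of which *Sdc1*, the syndecan that mesenchymal cells also express, was the 1 gene of 4 above 1 CPM, and *Mzb1* and *Jchain* had group means of at most 0.226 CPM. The part of these differences in the results below was not tested.

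Several of these genes carry short promoter sequences that are known as binding sites of the unfolded protein response, and these are shown first. The ER stress response element (ERSE), searched as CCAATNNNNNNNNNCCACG on both strands, was present in the promoter window of 9 of the 28 genes that had one (32.1%). Of 27025 gene symbols with a window, 37 had it (0.137%). The 36 genes were picked as genes of this pathway, so these shares and those of the elements below are a description, not a test. Windows ran from 250 bases before to 50 bases after the RefSeq start, taken from a RefSeq promoter table of build GRCm38.p6, and 8 of the 36 genes had no window in that table. The element began 44 to 212 bases upstream of the RefSeq start, which can differ from the start of the gene in the count table, and *Hsp90b1* had it at 2 places. The sites are written below 5′ to 3′ along the gene's own strand with 5 bases on either side, with GRCm39 coordinates found by exact match, and capitals mark the fixed letters of the element or of its reverse complement.
Hspa5, chr2:34662032-34662060, plus strand: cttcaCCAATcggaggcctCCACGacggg
Hsp90b1, chr10:86541497-86541525, minus strand: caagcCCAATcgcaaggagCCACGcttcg
Hsp90b1, chr10:86541392-86541420, minus strand: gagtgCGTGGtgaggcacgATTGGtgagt
Calr, chr8:85573699-85573727, minus strand: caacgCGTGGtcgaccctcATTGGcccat
Canx, chr11:50216622-50216650, minus strand: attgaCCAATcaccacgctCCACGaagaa
Pdia6, chr12:17316487-17316515, plus strand: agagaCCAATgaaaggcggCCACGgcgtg
Creld2, chr15:88703718-88703746, plus strand: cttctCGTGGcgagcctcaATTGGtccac
Dnajc3, chr14:119175234-119175262, plus strand: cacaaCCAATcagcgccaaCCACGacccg
Syvn1, chr19:6096557-6096585, plus strand: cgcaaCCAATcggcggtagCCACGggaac
Derl3, chr10:75729071-75729099, plus strand: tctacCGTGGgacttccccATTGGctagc

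A second form, ERSE-II, searched as ATTGGNCCACG, occurred in 2 of the 28 windows (7.14%, against 0.0444% of all symbols), those of *Herpud1* and *Dnajb11*. The UPR element, searched as TGACGTGG, occurred in 3 of 28 (10.7%, against 0.714%), those of *Kdelr3*, *Sec24d* and *Sec23a*. The cAMP response element TGACGTCA, which shares its first letters with the UPR element, was in none of the 28 windows and in 2.03% of all symbols. The sites of *Dnajb11* and *Sec23a* began 7 and 6 bases after the start and the other 3 before it. All 5 are shown, since 4 of these genes were higher on col1-ACLP and *Sec24d* carried the element and was not called.
Herpud1, chr8:95113000-95113020, plus strand: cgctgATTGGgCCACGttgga
Dnajb11, chr16:22676597-22676617, plus strand: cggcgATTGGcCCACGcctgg
Kdelr3, chr15:79400574-79400591, plus strand: ccccgCCACGTCAccgcg
Sec23a, chr12:59058785-59058802, minus strand: cccttTGACGTGGcagag
Sec24d, chr3:123061114-123061131, plus strand: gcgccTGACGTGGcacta

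Of the 9 genes with an ERSE, 6 were higher on col1-ACLP than on col1 (median log2 fold change 0.28), and of the 19 genes with a window that lacked it, 13 were higher (median 0.29). Of all genes tested 9.52% were higher, and of those with at least 20 CPM 16.2%. The 19 include the 2 genes with ERSE-II and the 3 with the UPR element, so they are not free of such sites. *Dnajc3*, *Syvn1* and *Derl3* had the ERSE and were not called. These matches describe the sequence and do not show that a factor was bound.

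In cells on col1-ACLP, 26 of the 36 genes were higher than on col1 and 0 were lower, at an adjusted p below 0.05 in edgeR's quasi-likelihood test over all 16465 genes, which is what "higher", "lower" and "called" mean throughout. Among all genes tested 9.52% were higher and 8.41% lower. Among the 7478 genes with at least 20 CPM on average, a level that 35 of the 36 reached, 16.2% were higher. In bulk RNA, fewer cells of a type and less RNA per cell cannot be told apart. The changes were small. The median log2 fold change of the 36 genes was 0.28, against -0.0099 over all genes tested, the range ran from -0.02 to 0.57, and 0 of the 36 passed the study's additional limit of 0.58 on the absolute log2 fold change, which 2.61% of all genes passed in the upward direction. The calls comprised 8 of 10 chaperones, 4 of 4 disulfide genes, 2 of 5 sensors and factors, 4 of 6 ERAD genes, 5 of 5 translocon genes and 3 of 6 export genes. In 25 of the 36 genes each col1-ACLP library was above each col1 library, which held for 10.9% of all genes. Without col1 replicate 2, the count of higher genes was 24.

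With SB431542, 15 of the 36 genes were higher on col1-ACLP+SB than on col1 and 0 were lower, with 4.60% of all genes higher and 4.54% lower, and 7.85% higher among genes with at least 20 CPM. The median log2 fold change was 0.18, and 0 of 36 passed the fold limit, as 1.27% of all genes did upward. The 4 col1-ACLP+SB libraries lay above the 4 col1 libraries in 16 of 36 genes, against 6.70% of all genes. The call of *Canx* (adjusted p up to 0.141 over the alternatives) was lost without col1 replicate 1, 3 or 4 or col1-ACLP+SB replicate 1, 3 or 4, and also with the replicate block, with only these 2 groups fitted and with library size alone. The call of *Pdia6* (up to 0.074) was lost without col1 replicate 1 or 3 or col1-ACLP+SB replicate 2, and that of *Sec61b* (up to 0.0712) without col1 replicate 4. Without col1 replicate 2, 17 genes were higher.

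Directly between the ACLP groups, 5 of the 36 genes were lower on col1-ACLP+SB than on col1-ACLP and 0 were higher, where 0.905% of all genes were lower and 0.571% higher. Among genes with at least 20 CPM, 1.89% were lower. Of the 36 estimates 34 were negative, the exceptions being *Syvn1* and *Derl3*, against 48.8% of all genes and 54.5% of those with at least 20 CPM. The median of the 36 was -0.11, and 0 of 36 passed the fold limit, as 0.0425% of all genes did downward. In 16 of 36 genes each col1-ACLP+SB library was below each col1-ACLP library, against 4.52% of all genes. The 5 genes were *Sel1l*, *Hsp90b1*, *Canx*, *Hyou1* and *Hspa5*. Of these calls, those of *Sel1l* and *Hsp90b1* held under each of 20 alternative settings, whereas *Canx* and *Hyou1* were each called in 12 of 20 and *Hspa5* in 5 of 20. The count was 2 when the samples were fitted as these 2 groups only, when the replicate number was added as a block, or without col1-ACLP replicate 1, col1-ACLP replicate 4 or col1-ACLP+SB replicate 4, and it was 3 without col1-ACLP replicate 2 or 3 or col1-ACLP+SB replicate 1 or 2.

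**Figure D1:**
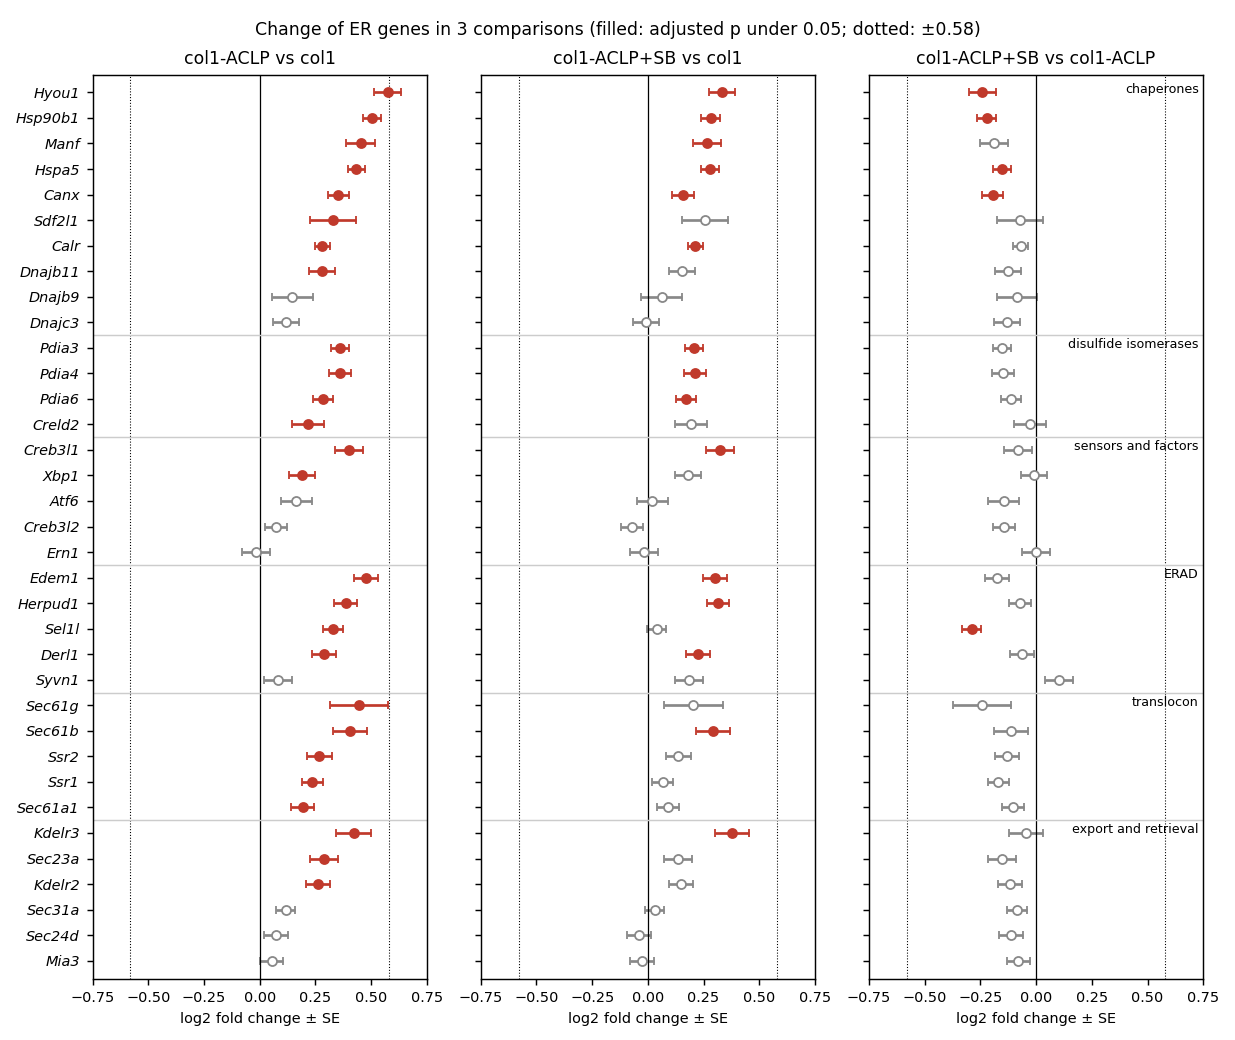
Log2 fold change ± SE of 35 ER genes (*Derl3* left out for its low counts) in the 3 comparisons, grouped by role. Filled red points passed an adjusted p below 0.05 in edgeR (26, 15 and 5 genes), open points did not, and dotted lines mark ±0.58, which no point passed.

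The shift was even across libraries. For the 35 genes other than *Derl3*, the median log2 difference from the col1 mean was -0.01 to 0.03 in the col1 libraries, 0.27 to 0.29 in the col1-ACLP libraries and 0.14 to 0.18 in the col1-ACLP+SB libraries. The 7478 genes with at least 20 CPM had medians between -0.0041 and 0.0196 in the same libraries. The 36 genes together took 0.735 to 0.757% of counts on col1, 0.889 to 0.901% on col1-ACLP and, with SB431542, 0.819 to 0.843%, so the 3 groups did not overlap in this share.

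**Figure D2:**
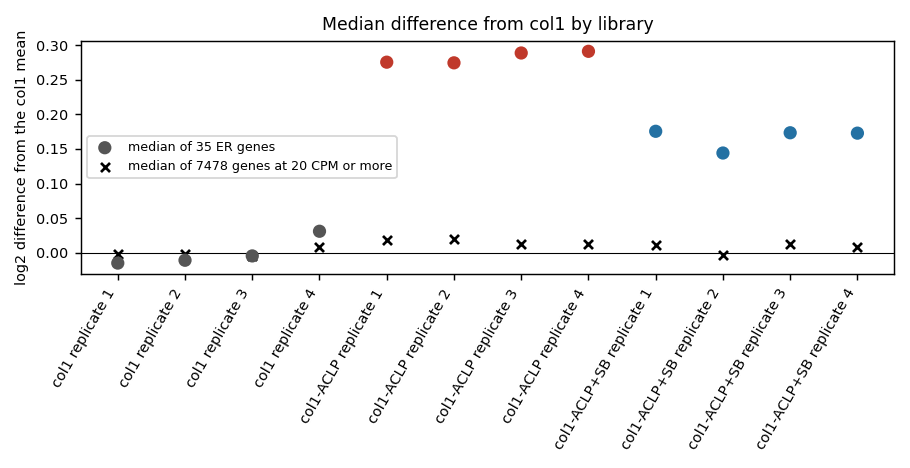
Median log2 difference from the col1 mean in each of the 12 libraries, for 35 ER genes (circles, coloured by group) and for 7478 genes with at least 20 CPM (crosses). The circles form 3 levels, near 0 on col1, 0.27 to 0.29 on col1-ACLP and, with SB431542, 0.14 to 0.18, and the crosses stay near 0.

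Levels between genes were compared as FPKM, the CPM divided by gene length in kilobases. On col1, calreticulin (*Calr*, 471 ± 6.02 FPKM, SD, n = 4) was the highest, followed by the isomerase *Pdia3* (225 ± 10.1), then *Hspa5* (145 ± 3.62) and *Hsp90b1* (142 ± 3.58), whose library values overlapped, and *Pdia6* (108 ± 5.98) and *Canx* (95.4 ± 4.51). The lowest means of the well-detected genes were those of the sensors *Atf6* (8.30 ± 0.895) and *Ern1* (7.58 ± 0.538). Between *Calr* and *Ern1* the levels spanned 62.1-fold. Of the 35 pairs of neighbours in this order, 26 had overlapping col1 libraries, so most of the order is not resolved, including that of *Edem1*, *Sec61g*, *Atf6* and *Ern1* at its low end. *Derl3* stood below all others at 0.18 ± 0.161 FPKM, with 1 to 34 counts per library. Without it, the coefficient of variation of the genes between libraries had a median of 5.40% on col1, 4.30% on col1-ACLP and, with SB431542, 5.10%.

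**Figure D3:**
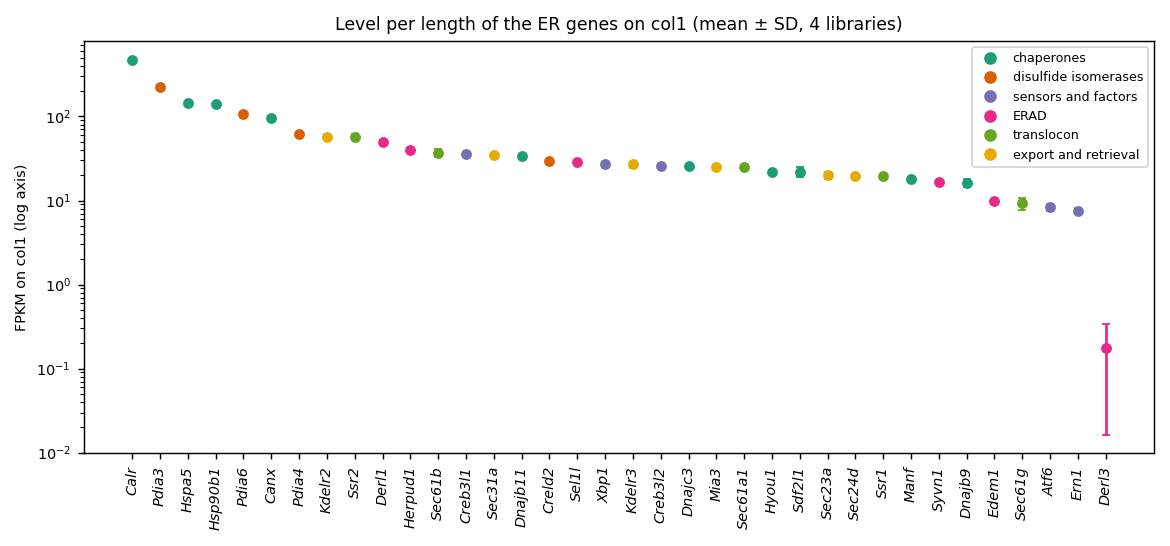
Level per gene length (FPKM, log axis) of the 36 genes on col1, as mean ± SD of 4 libraries, ordered by level and coloured by role. *Calr* is the highest and *Derl3* the lowest, and chaperones and isomerases hold the top 7 places while the sensors *Atf6* and *Ern1* hold places 34 and 35, with col1 libraries that overlap their neighbours above.

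Among the chaperones, *Hyou1*, *Hsp90b1*, *Manf* and *Hspa5* had the largest rises. *Hspa5* (BiP), the main Hsp70 of the ER lumen and a standard marker of the unfolded protein response, lies on chromosome 2 from 34661982 to 34667559 (GRCm39). The ERSE printed above lies inside this span, because the count table starts the gene upstream of the RefSeq start from which the site was placed. It measured 591, 619, 617 and 627 CPM on col1, 818, 828, 803 and 866 on col1-ACLP and, with SB431542, 737, 762, 760.4 and 719. The 3 groups did not overlap. Its log2 fold change on col1-ACLP against col1 was 0.43 (SE 0.0398, adjusted p = 6.77e-09), a rise of 35.1%, and with SB431542 it was 0.28 (SE 0.0397, adjusted p = 1.60e-05) against col1 and -0.15 (SE 0.0397, adjusted p = 0.0478) against col1-ACLP.

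*Hsp90b1* (GRP94), the Hsp90 of the ER lumen, which folds integrins among other clients, had the smallest p of the 36 genes on col1-ACLP against col1. Its protein-coding gene lies on chromosome 10 from 86526073 to 86541373 on the minus strand. The col1 libraries had 567, 568, 565 and 595 CPM, those on col1-ACLP 801, 798, 804 and 851 and those with SB431542 696, 662, 732 and 699. Again no library of one group fell within another group's range. It rose by 0.50 (SE 0.0412, adjusted p = 8.63e-10) on col1-ACLP, and it fell by 0.22 (SE 0.0411, adjusted p = 0.00465) on the log2 scale from col1-ACLP to col1-ACLP+SB, where it remained 0.28 (SE 0.0412, adjusted p = 2.43e-05) above col1.

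*Hyou1*, which exchanges the nucleotide of BiP, had the largest fold change of the 36, and its gene lies on chromosome 9 from 44290787 to 44303666. Its levels were 153, 163, 154 and 165 CPM on col1, 226, 225, 229 and 265 on col1-ACLP and, with SB431542, 202, 199.7, 216 and 181. Replicate 4 was the highest on col1-ACLP and the lowest on col1-ACLP+SB, yet the groups did not overlap. The log2 fold changes were 0.57 (SE 0.0588, adjusted p = 4.63e-08) on col1-ACLP against col1, 0.33 (SE 0.0587, adjusted p = 0.000264) on col1-ACLP+SB against col1 and -0.24 (SE 0.0586, adjusted p = 0.0348) between the ACLP groups. The first estimate lies just inside the limit of 0.58, and *Hyou1* passed it when col1 replicate 2 or 4, or col1-ACLP replicate 1, 2 or 3, was left out.

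The lectin chaperones calnexin (*Canx*) and calreticulin (*Calr*), which hold newly made glycoproteins, both rose on col1-ACLP. For *Canx* the values were 419.5, 471, 449 and 451 CPM on col1, 577, 578, 546 and 585 on col1-ACLP and, with SB431542, 513, 457, 525 and 502. The col1-ACLP libraries lay above all others, and the lowest col1-ACLP+SB library, replicate 2, lay within the col1 range. Its log2 fold change was 0.35 (SE 0.0476, adjusted p = 3.71e-06) on col1-ACLP and 0.16 (SE 0.0476, adjusted p = 0.0358) on col1-ACLP+SB against col1. *Calr* rose by 0.28 (SE 0.0336, adjusted p = 5.82e-07) and, with SB431542, by 0.21 (SE 0.0336, adjusted p = 6.87e-05), and its estimate between the ACLP groups was -0.07 (SE 0.0335, adjusted p = 0.387).

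Of the other chaperone genes, *Dnajb11* (ERdj3, a J-domain partner of BiP) rose by 0.28 (adjusted p = 0.000913) and *Sdf2l1*, which binds ERdj3, by 0.33 (adjusted p = 0.0267) on col1-ACLP, a call that was lost with library size alone and without col1 replicate 1 or 4 or col1-ACLP replicate 2 or 3 (adjusted p up to 0.0967). *Manf*, a secreted factor that binds BiP, rose by 0.45 (adjusted p = 7.07e-06). Its gene model shares 3962 exon bases with *Rbm15b* on the same strand and 773 with *Dcaf1* on the other, so its counts are uncertain, although neither neighbour was called (log2 fold change 0.0077 and 0.037). *Dnajb9* (ERdj4) and *Dnajc3* (p58IPK), J-domain co-chaperones that the unfolded protein response is known to induce, had 0.15 (adjusted p = 0.316) and 0.12 (adjusted p = 0.183) and were not called.

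**Figure D4:**
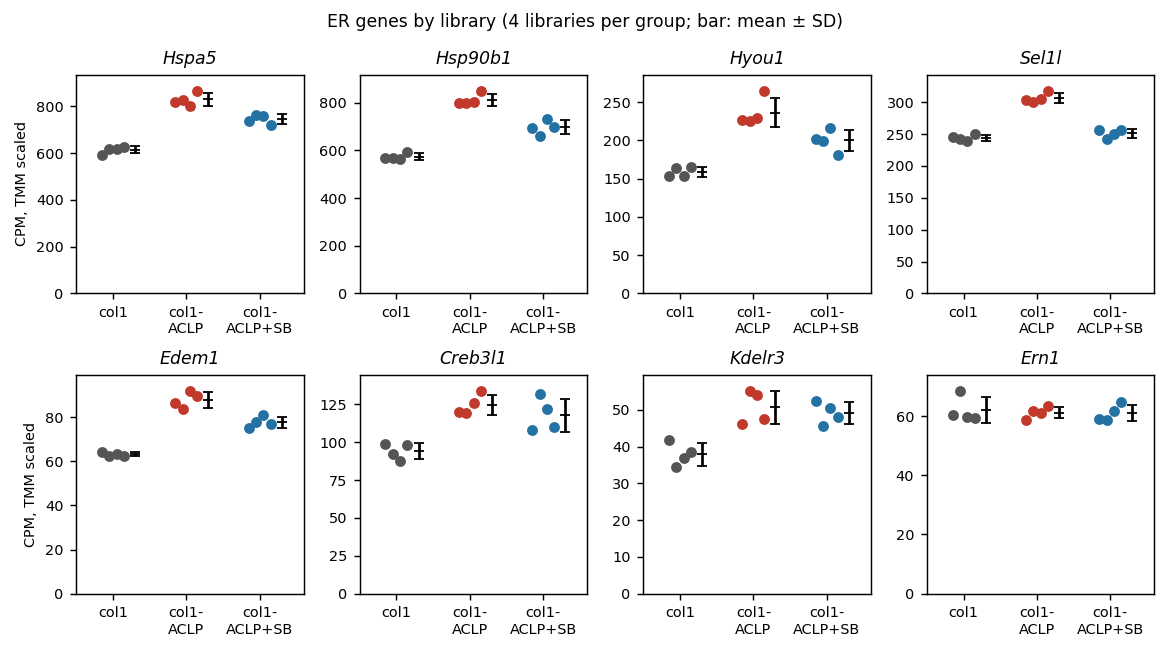
CPM of 8 ER genes in each of the 12 libraries (points, TMM scaled, axes from 0), with the mean ± SD of 4 libraries beside each group. *Hspa5*, *Hsp90b1* and *Hyou1* stand in 3 separate levels, *Sel1l* overlaps col1 with SB431542, *Creb3l1* and *Kdelr3* stay above col1, and *Ern1* overlaps in all groups.

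All 4 disulfide genes rose on col1-ACLP. *Pdia3* (ERp57), which forms disulfide bonds in glycoproteins held by calnexin and calreticulin, had 681, 751, 685 and 709 CPM on col1, 906, 916, 895 and 909.7 on col1-ACLP and, with SB431542, 819, 780.1, 824 and 843. The groups were fully separated. The log2 fold change was 0.36 (SE 0.0405, adjusted p = 2.18e-07) on col1-ACLP and 0.21 (SE 0.0404, adjusted p = 0.000797) on col1-ACLP+SB against col1, and -0.15 (SE 0.0404, adjusted p = 0.0592) between the ACLP groups, which did not pass.

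*Pdia4* (ERp72) measured 149.7, 151, 147 and 143 CPM on col1, 198, 178, 187 and 193 on col1-ACLP and, with SB431542, 174, 180.3, 164 and 166. Both ACLP groups lay above col1, while col1-ACLP replicate 2 fell below col1-ACLP+SB replicate 2. Its log2 fold changes against col1 were 0.36 (SE 0.0496, adjusted p = 5.20e-06) and 0.21 (SE 0.0496, adjusted p = 0.0052). *Pdia6* (P5), a further isomerase, gave 383, 424, 391 and 426 CPM on col1, 490.5, 489, 498 and 497 on col1-ACLP and, with SB431542, 431, 482, 461 and 454. The col1-ACLP libraries varied little and lay above both other groups. Its log2 fold changes against col1 were 0.28 (SE 0.0458, adjusted p = 4.92e-05) and 0.17 (SE 0.0457, adjusted p = 0.0159). *Creld2*, an ER stress-induced lumenal protein, rose by 0.22 on col1-ACLP (adjusted p = 0.0343) and was not called with SB431542 (0.19, adjusted p = 0.103). The *Creld2* call was lost with scaling by library size alone and without col1 replicate 1, 2 or 3 or col1-ACLP replicate 2, 3 or 4 (adjusted p up to 0.144).

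Of the 5 sensors and ER-bound or ER-activated transcription factors, *Xbp1* and *Creb3l1* were higher on col1-ACLP and *Ern1*, *Atf6* and *Creb3l2* were not called. *Ern1* encodes IRE1α, the kinase and nuclease that splices *Xbp1* mRNA, and its level was 60.4, 68.5, 59.6 and 59.2 CPM on col1, 58.6, 61.8, 61.1 and 63.4 on col1-ACLP and, with SB431542, 59.2, 58.8, 61.7 and 64.8. The 3 groups overlapped and its log2 fold changes against col1 were -0.02 (SE 0.0628) and -0.02 (SE 0.0626), both of which turned positive (0.036 and 0.033) without col1 replicate 2. The estimate on col1-ACLP also turned positive without col1-ACLP replicate 1. *Atf6*, the membrane-held factor that is cut in the Golgi on stress, had 77.4, 66.3, 76.5 and 86.4 CPM on col1, 83.1, 79.5, 93.2 and 87.8 on col1-ACLP and, with SB431542, 76.8, 74.1, 80.1 and 79.6. These ranges overlapped too, with log2 fold changes of 0.16 (SE 0.0692, adjusted p = 0.112) and 0.02 (SE 0.0692, adjusted p = 0.935), neither of which passed. Both sensors are activated as proteins, which these counts do not measure.

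*Xbp1*, the transcription factor that IRE1 activates by splicing, measured 83.1, 87.2, 94.6 and 90.6 CPM on col1, 95.5, 101, 105 and 104 on col1-ACLP and, with SB431542, 108, 94.8, 103 and 96.0. The lowest library of each ACLP group was just above the highest col1 library. It rose by 0.19 (SE 0.0582, adjusted p = 0.0235) on col1-ACLP, a call made in 14 of 20 alternative settings (adjusted p up to 0.107) and lost with library size alone and without col1 replicate 1 or 2 or col1-ACLP replicate 2, 3 or 4. Its log2 fold change with SB431542 was 0.18 (SE 0.0581, adjusted p = 0.0557). Gene-level counts pool the spliced and unspliced forms, so splicing was not read.

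*Creb3l1* (OASIS) and *Creb3l2* (BBF2H7) are ATF6-like factors held in the ER membrane, and OASIS is known to act on the *Col1a1* gene in osteoblasts. *Creb3l1* had 98.7, 92.5, 87.9 and 98.0 CPM on col1, 120.2, 119, 125 and 134 on col1-ACLP and, with SB431542, 108, 131, 122 and 110.0. Both ACLP groups lay above col1 and overlapped each other. The log2 fold change was 0.40 (SE 0.0628, adjusted p = 3.13e-05) on col1-ACLP and 0.32 (SE 0.0627, adjusted p = 0.000861) on col1-ACLP+SB against col1. *Creb3l2* was not called in any comparison, with 0.07 and -0.07 against col1 and -0.15 between the ACLP groups.

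The ratio of *Creb3l1* to *Creb3l2* per length is given as a description with no p-value, since the ratio was chosen after the values were seen. It ranged from 1.27 to 1.47 on col1, from 1.68 to 1.81 on col1-ACLP and, with SB431542, from 1.68 to 2.05, with means of 1.40, 1.75 and 1.83. Neither ACLP group overlapped col1.

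In ERAD, which returns misfolded proteins to the cytosol for degradation, *Edem1*, *Herpud1*, *Sel1l* and *Derl1* rose on col1-ACLP and *Syvn1* and *Derl3* were not called. *Edem1*, a lectin that directs trimmed glycoproteins to degradation, had 64.2, 62.3, 63.3 and 62.5 CPM on col1, 86.3, 83.5, 91.8 and 89.5 on col1-ACLP and, with SB431542, 75.2, 77.6, 81.0 and 76.8. The 3 groups were separate. Its log2 fold changes against col1 were 0.48 (SE 0.0544, adjusted p = 2.82e-07) and 0.30 (SE 0.0543, adjusted p = 0.000367), and the estimate of -0.18 (SE 0.0541, adjusted p = 0.111) between the ACLP groups did not pass.

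*Herpud1*, a membrane scaffold of the degradation complex and the carrier of the ERSE-II printed above, gave 92.2, 89.2, 97.9 and 95.8 CPM on col1, 121, 120.5, 123 and 126 on col1-ACLP and, with SB431542, 116, 119, 120.2 and 111. All ACLP libraries exceeded all col1 libraries. *Herpud1* rose by 0.39 (SE 0.0506, adjusted p = 2.48e-06) and, with SB431542, by 0.31 (SE 0.0505, adjusted p = 8.56e-05). Its difference between the ACLP groups was -0.07 (SE 0.0504, adjusted p = 0.633).

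*Sel1l*, on chromosome 12 from 91772817 to 91815931, encodes the adaptor that brings substrates to the ubiquitin ligase HRD1. It measured 245, 242, 239 and 250.4 CPM on col1, 303, 301, 306 and 318 on col1-ACLP and, with SB431542, 256, 242, 250.04 and 257. The col1-ACLP libraries lay clear of all others, and the col1-ACLP+SB libraries overlapped col1. *Sel1l* rose by 0.33 (SE 0.043, adjusted p = 2.33e-06) on col1-ACLP and fell by 0.29 (SE 0.043, adjusted p = 0.000528) on the log2 scale from there to col1-ACLP+SB, where it was 0.04 (SE 0.043, adjusted p = 0.689) from col1. The fall between the ACLP groups had the smallest p of the 36 genes.

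*Syvn1*, which encodes HRD1 itself, had 0.08 on col1-ACLP (adjusted p = 0.43) and 0.18 on col1-ACLP+SB (adjusted p = 0.0597), and shares 96 exon bases with *Mrpl49* on the other strand. *Derl1*, a channel subunit, rose by 0.29 (adjusted p = 0.000321) and with SB431542 by 0.22 (adjusted p = 0.00701). For *Derl3* no difference was detectable at this depth, with SE 0.848 on its log2 fold change of 0.24.

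All 5 translocon genes rose on col1-ACLP, where 9.52% of all genes were higher. With SB431542 1 of the 5, *Sec61b*, was called against col1, where 4.60% of all genes were higher, and 7.85% of those with at least 20 CPM. Directly between the ACLP groups 0 of the 5 were called. *Sec61b*, the small β subunit of the protein-conducting channel, had 46.0, 53.2, 47.3 and 40.3 CPM on col1, 61.4, 62.2, 65.2 and 58.3 on col1-ACLP and, with SB431542, 54.9, 61.3, 52.5 and 60.1. The col1-ACLP libraries were above all col1 libraries, and col1-ACLP+SB replicate 3 lay below col1 replicate 2. The log2 fold changes were 0.40 (SE 0.0762, adjusted p = 0.000325) and 0.29 (SE 0.0761, adjusted p = 0.013). *Sec61a1*, the channel itself, rose by 0.19 (adjusted p = 0.00752) and the γ subunit gene *Sec61g* by 0.45 (SE 0.132, adjusted p = 0.0177), with overlapping libraries for the latter and a call that was lost without col1 replicate 1 or col1-ACLP replicate 2 (adjusted p up to 0.122).

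*Ssr1* and *Ssr2* encode subunits of the translocon-associated protein complex, which aids entry of some proteins. *Ssr1* levels were 203, 199, 199 and 213 CPM on col1, 235, 243, 243 and 238 on col1-ACLP and, with SB431542, 220.4, 197, 219.9 and 214. With SB431542 its libraries overlapped col1, and the log2 fold changes were 0.24 (SE 0.0472, adjusted p = 0.000618) without and 0.07 (SE 0.0472, adjusted p = 0.502) with the inhibitor. *Ssr2* had 106, 117, 101 and 105 CPM on col1, 135, 134, 124 and 124 on col1-ACLP and, with SB431542, 125, 118, 115 and 114. Each col1-ACLP library exceeded each col1 library, and the log2 fold changes were 0.27 (SE 0.0556, adjusted p = 0.000923) and 0.14 (SE 0.0555, adjusted p = 0.144).

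Of the 6 export and retrieval genes, *Kdelr3*, *Kdelr2* and the COPII gene *Sec23a* rose on col1-ACLP, and *Sec24d*, *Sec31a* and *Mia3* were not called. The remaining KDEL receptor gene, *Kdelr1*, from the wider list below, had 0.03 (adjusted p = 0.792). *Kdelr3*, a receptor that returns escaped ER chaperones from the Golgi, had 41.8, 34.3, 36.9 and 38.4 CPM on col1, 46.2, 55.1, 54.1 and 47.6 on col1-ACLP and, with SB431542, 52.4, 45.5, 50.6 and 48.1. Both ACLP groups lay above col1 and overlapped each other. Its log2 fold change was 0.42 (SE 0.0772, adjusted p = 0.000233) on col1-ACLP and 0.38 (SE 0.077, adjusted p = 0.00146) on col1-ACLP+SB, the largest of the 36 in the latter comparison. Its exons share 23 bases with *Ddx17* on the other strand, whose mean count was 34847 against 1626 for *Kdelr3*, so its counts are uncertain, although *Ddx17* was not called (log2 fold change -0.08 and 0.05 against col1).

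*Kdelr2*, its paralog, gave 109.8, 98.6, 99.8 and 114 CPM on col1, 125, 127, 121 and 132 on col1-ACLP and, with SB431542, 112, 117, 118 and 120.1. The col1-ACLP libraries were above both other groups, with log2 fold changes of 0.26 (SE 0.0546, adjusted p = 0.000923) on col1-ACLP and 0.15 (SE 0.0546, adjusted p = 0.103) on col1-ACLP+SB. The ratio of *Kdelr3* to *Kdelr2* per length, also given as a description with no p-value, ranged from 0.438 to 0.494 on col1, from 0.465 to 0.577 on col1-ACLP and, with SB431542, from 0.504 to 0.605. The col1-ACLP libraries overlapped both other groups, and the ratio carries the uncertainty of the *Kdelr3* counts.

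*Sec23a*, a subunit of the inner COPII coat, had 98.6, 87.0, 91.8 and 107 CPM on col1, 112, 121, 119 and 117 on col1-ACLP and, with SB431542, 103, 98.3, 111 and 111. The col1-ACLP libraries were the highest, and those with SB431542 overlapped col1. It rose by 0.29 (SE 0.0616, adjusted p = 0.0012) on col1-ACLP and had 0.14 (SE 0.0616, adjusted p = 0.209) on col1-ACLP+SB. Of the rest, *Sec24d* (inner coat, cargo binding) had 0.07, *Sec31a* (outer coat) 0.12 and *Mia3* 0.05 on col1-ACLP, with adjusted p of 0.417, 0.0712 and 0.579. *Mia3* encodes TANGO1, which helps load procollagen into COPII carriers. *Sec31a* was the 1 of the 3 whose libraries did not overlap, and DESeq2 and limma-voom called it.

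Beyond the 36 genes, 122 further genes of the same pathway were listed and 120 were tested. On col1-ACLP against col1, 47 of the 120 were higher (39.2%) and 2 lower (1.67%), with a median log2 fold change of 0.14, where 9.52% of all genes were higher and 8.41% lower, and 16.2% of those with at least 20 CPM were higher. By list, the higher genes were 9 of 21 other folding genes, 4 of 13 other signalling genes, 3 of 19 other ERAD genes, 13 of 29 other translocation genes and 18 of 38 genes of ER to Golgi traffic. The share of other ERAD genes, 15.8%, was near that of all genes with at least 20 CPM. On col1-ACLP+SB against col1, 17 of the 120 were higher (14.2%) and 1 lower. There 4.60% of all genes were higher, and 7.85% of those with at least 20 CPM. Between the ACLP groups 3 of the 120 (2.5%) were lower and 0 higher on col1-ACLP+SB, where 0.905% of all genes were lower. Among genes with at least 20 CPM 1.89% were lower, a share near that of the 120. The 3 were *Ero1a*, *Pdia5* and *Spcs3*, the last named after its values were seen and called in 8 of 20 alternative settings.

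The largest called rises in this wider set were in genes of the integrated stress response, which PERK and other kinases feed. *Trib3*, a pseudokinase induced by ATF4, had 25.6, 35.2, 27.4 and 30.9 CPM on col1, 109, 99.2, 103 and 136 on col1-ACLP and, with SB431542, 87.6, 105, 85.1 and 81.0. The ACLP groups lay far above col1 and overlapped each other. *Trib3* rose by 1.91 (SE 0.101, adjusted p = 2.96e-13) and *Chac1*, a glutathione-degrading enzyme, by 1.5 (SE 0.126, adjusted p = 1.40e-09) on col1-ACLP. Of the other 11 genes of the signalling list, *Atf4* itself rose by 0.50 (SE 0.0493, adjusted p = 2.18e-08) and, with SB431542, by 0.33 (SE 0.0492, adjusted p = 3.12e-05), and *Nfe2l1* rose by 0.18 (adjusted p = 0.00196) on col1-ACLP. The remaining 9, among them *Eif2ak3*, which encodes PERK, and *Ddit3* (CHOP, 0.08, adjusted p = 0.626), were not called. *Atf4*, *Nfe2l1*, *Eif2ak3* and *Ddit3* were named after their values were seen.

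Among folding genes outside the 36, *Ero1a*, the oxidase that recharges disulfide isomerases, rose by 0.89 (SE 0.0588, adjusted p = 1.76e-11) and the isomerase *Pdia5* by 0.83 (SE 0.0788, adjusted p = 1.33e-08). Both were lower on col1-ACLP+SB than on col1-ACLP, by 0.23 and 0.31 on the log2 scale (adjusted p = 0.0404 and 0.0427). Each of these calls was made in 10 of 20 alternative settings. Both were lost with library size alone, without col1 replicate 4, without any 1 of the 4 col1-ACLP libraries and without col1-ACLP+SB replicate 1 or 4 (adjusted p up to 0.121 and 0.142). That of *Ero1a* was also lost with the replicate block and without col1-ACLP+SB replicate 2, and that of *Pdia5* without col1 replicate 1 or col1-ACLP+SB replicate 3. In translocation, *Rpn2* and *Rpn1*, subunits of the enzyme that attaches N-glycans, rose by 0.46 and 0.41. In traffic, *Sec13* (outer COPII coat) rose by 0.41 and *Sec23b*, the paralog of *Sec23a*, by 0.39, while *Sec16b*, a protein of ER exit sites, fell by 0.32 (adjusted p = 0.000743). In ERAD, *Faf2* rose by 0.23 and *Ube2j1* by 0.17, and *Edem3*, a relative of *Edem1*, fell by 0.16 (adjusted p = 0.0483).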

How the data were processed

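The data were raw read counts per gene, with gene lengths, for 12 libraries made from poly(A)-enriched total RNA and sequenced as paired-end reads. Per the labels and the study's methods, the authors aligned reads with HISAT2, and the deposited counts carry no normalization. The sample records name build mm10 and the study GRCm39. The table's gene coordinates overlapped GRCm39 positions for 55980 of 56017 shared identifiers (99.9%), so coordinates are given on GRCm39. The counting tool and its strand setting are not given in the sources used here, so reads of overlapping genes cannot be separated. There were 0 columns of other samples. The study describes biological replicates, and the labels do not say whether libraries came from separate cultures, so p-values measure the spread between these libraries. Counts of libraries of 1 group differed beyond sampling noise in every pair (chi-square per degree of freedom 7.22 to 19.5).

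Genes were filtered with filterByExpr (16465 kept), scaled by TMM and tested with edgeR 4.0.16 in R 4.3.3 (glmQLFit and glmQLFTest) over all 12 libraries, with Benjamini-Hochberg adjustment over all genes kept. A gene was called at an adjusted p below 0.05, and the study's limit of 0.58 on the absolute log2 fold change was counted separately. CPM are TMM scaled, and FPKM divide them by the deposited gene length. These values are relative to the other genes of a library, so a change in a few abundant genes can shift the rest. DESeq2 1.42.0, limma 3.58.1 (voom), other scalings and filters, the 2 groups compared alone, a replicate block and leaving out each library were alternatives. Scripts were tested on simulated data.

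The genes, role groups and lists were chosen with earlier results of these data known. Values per library are given for the 3 genes of each role group with the smallest p on col1-ACLP against col1, for genes called between the ACLP groups and for genes past the fold limit. Of the other pathway genes, those with the 2 largest called changes in each direction per list are named. *Ern1* and *Trib3* values, the background of genes with at least 20 CPM and the paralog ratios were chosen after the data were seen. Of the 122 listed pathway symbols, 2 (*Hm13*, *Srpra*) did not match. Promoter windows came from RefSeq (GRCm38.p6) and were placed on GRCm39 by exact match.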

Additional observations from a re-analysis of the deposited data

Results flagged for a closer look

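A single library stood far from the other 3 of its group in 6 of 108 groups of 4 values (36 genes in 3 groups), its gap to the nearest of them being larger, relative to the range, than Dixon's critical value for groups of 4, where chance gives about 1 in 20. *Hsp90b1* was highest in col1 replicate 4, at 595 CPM against 565 to 568 in the others, and in col1-ACLP replicate 4, at 851 CPM against 798 to 804. *Hyou1* was highest in col1-ACLP replicate 4, at 265 CPM against 225 to 229. *Calr* was lowest in col1-ACLP+SB replicate 4, at 1524 CPM against 1584 to 1585. *Ern1* was highest in col1 replicate 2, at 68.5 CPM against 59.2 to 60.4, and *Syvn1* in col1-ACLP+SB replicate 2, at 103 CPM against 87.4 to 87.8.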

How the results depend on the processing

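On col1-ACLP against col1, the count of 26 higher genes was 22 to 26 with 1 library left out and 23 to 27 under the other alternatives, and the lost calls were limited to *Creld2*, *Sdf2l1*, *Sec61g* and *Xbp1*. The count past the fold limit, 0, was 0 to 1 with 1 library left out. On col1-ACLP+SB against col1, 15 became 13 to 17. Between the ACLP groups, 5 became 2 to 6 with 1 library left out, 3 with scaling by library size alone, 2 with only these groups fitted, 2 with the replicate block and 9 with DESeq2. The other pathway genes called there, 3, became 0 to 4 with 1 library left out, 0 with library size alone, 6 without a filter, 1 with the replicate block, 14 with DESeq2 and 6 with limma-voom. Of the 108 log2 fold changes of the 36 genes, 13, from 9 genes and 0 of them called, changed sign under at least 1 alternative. With library size alone they were -0.0045 for *Atf6* on col1-ACLP+SB against col1 and, between the ACLP groups, 3.2e-05 for *Creld2*, 0.024 for *Ern1* and 0.015 for *Xbp1*. With only these groups fitted *Ern1* was 0.00078 between the ACLP groups, and limma-voom gave -0.31 for *Derl3* on col1-ACLP against col1. With 1 library left out, the ranges on col1-ACLP against col1 were -0.036 to 0.036 for *Ern1* and -0.58 to 1.01 for *Derl3*. On col1-ACLP+SB against col1 they were -0.013 to 0.12 for *Dnajb9*, -0.057 to 0.028 for *Dnajc3*, -0.044 to 0.083 for *Atf6*, -0.047 to 0.033 for *Ern1*, -0.11 to 1.06 for *Derl3* and -0.061 to 0.0097 for *Mia3*. Between the ACLP groups they were -0.15 to 0.0036 for *Sdf2l1*, -0.084 to 0.017 for *Creld2*, -0.032 to 0.015 for *Ern1*, -0.050 to 0.015 for *Xbp1* and -0.36 to 0.88 for *Derl3*. The cause was not tested. Library size alone moved the median of all genes from -0.0099 to -0.060 on col1-ACLP against col1. Same-numbered libraries did not deviate together (correlation -0.037 to 0.036 over 12 pairs), so the numbers were not taken as pairs. The replicate block left the counts against col1 at 26 and 14.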

Other observations

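Called genes were counted in 4 sets within the wider pathway lists, which were picked after the values were seen and have no test of their own. On col1-ACLP against col1, 9.52% of all genes were higher, and 16.2% of those with at least 20 CPM. Of the 10 subunits listed for oligosaccharyltransferase, which attaches N-glycans to proteins entering the ER, 7 were higher on col1-ACLP than on col1 (*Rpn1*, *Rpn2*, *Ddost*, *Dad1*, *Stt3a*, *Stt3b* and *Magt1*), with log2 fold changes of all 10 between 0.043 and 0.46. On col1-ACLP+SB against col1, where 4.60% of all genes were higher, 5 of them were. Of the 7 subunits of the COPI coat, which carries retrieval traffic from the Golgi, 5 were higher on col1-ACLP (0.067 to 0.21 over the 7) and 1, *Cope*, on col1-ACLP+SB. All 4 listed cargo receptors of the p24 family (*Tmed2*, *Tmed7*, *Tmed9* and *Tmed10*) were higher on col1-ACLP, by 0.17 to 0.25, and 0 of them on col1-ACLP+SB, where the estimates were 0.069 to 0.16. Of 6 genes of the signal recognition particle, which brings ribosomes to the ER, 1 (*Srp9*) was higher on col1-ACLP, a share near that of all genes with at least 20 CPM. Whether these sets differed in their response to the inhibitor was not tested.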
